A study of Mus musculus with 38 samples.

Results

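The 10 genes followed here through the libraries of the study are genes of macrophages: the complement genes C1qa, C1qb and C1qc, the receptor genes Csf1r and Adgre1, the adaptor genes Tyrobp and Fcer1g, and the lysosomal and granule genes Cd68, Lyz2 and Ctss. All 10 are among the 35976 genes of the bulk RNA-seq table with 17 libraries, in the second bulk table with 8 libraries and 37108 genes, and among the 20695 genes of the single-cell table. The genes were picked by name with their levels in these same libraries already known, so their levels and differences are given as a description and no count of them serves as a test. The study infected mouse embryonic fibroblasts (MEFs) with retroviral reprogramming factors in a chemically defined medium called iCD3 and asked which cell fates follow with and without BMP4, a secreted morphogen. The MEFs came from E13.5 embryos of OG2 males, which carry an Oct4-GFP transgene, and 129S4/SvJaeJ females, after organs, head, limbs and tail had been taken off. Their cell composition before infection was not measured here. One set of cultures received JGES, that is Jdp2, Glis1, Esrrb and Sall4, and was sampled on days 0, 1, 3, 5 and 7 without BMP4 (BMP4-) and on days 1, 3, 5 and 7 with BMP4 at 10 ng/ml (BMP4+). Further cultures received JGE (JGES without Sall4), JGEO (JGE plus Oct4) or JGESO (JGES plus Oct4) and were sampled on day 7, BMP4- and BMP4+. Another set received a single factor and no BMP4, either wild-type SALL4 (SALL4-WT) or SALL4-delN12, which lacks the N-terminal 12 amino acids, and was sampled on days 1, 5, 9 and 11.

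Macrophages depend on the receptor encoded by Csf1r and engulf dying cells, debris and microbes. C1q, the first component of the classical complement pathway, is built from the chains of C1qa, C1qb and C1qc, and tissue macrophages are a main source of it. TYROBP and FCER1G are small membrane adaptors that pass signals from activating receptors to the kinase SYK through a motif called ITAM. In the mouse embryo the earliest macrophages arise from the yolk sac and seed most tissues, so embryo tissue holds macrophages beside fibroblasts.

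Of the 10 genes, 6 (C1qb, C1qc, Cd68, Ctss, Fcer1g and Lyz2) have an entry in the RefSeq promoter table (build GRCm38.p6, 250 bases before to 50 after the start), and C1qa, Csf1r, Adgre1 and Tyrobp have none there. Shown are the 5 of these 6 whose gene had its highest level in the SALL4-delN12 library of day 11, to set their promoters side by side. Fcer1g, highest elsewhere, is not printed. Capitals mark GAGGAA or its reverse complement TTCCTC, the core of the site bound by PU.1, the product of Spi1 and a main regulator of macrophage genes.
C1qb promoter, chr4:136886151-136886450, minus strand: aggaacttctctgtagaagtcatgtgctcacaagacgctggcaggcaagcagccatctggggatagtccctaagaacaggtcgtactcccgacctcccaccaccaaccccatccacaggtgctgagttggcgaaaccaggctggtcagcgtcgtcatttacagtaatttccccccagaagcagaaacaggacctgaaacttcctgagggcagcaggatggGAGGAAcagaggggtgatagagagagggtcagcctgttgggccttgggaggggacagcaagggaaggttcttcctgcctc
C1qc promoter, chr4:136892865-136893164, minus strand: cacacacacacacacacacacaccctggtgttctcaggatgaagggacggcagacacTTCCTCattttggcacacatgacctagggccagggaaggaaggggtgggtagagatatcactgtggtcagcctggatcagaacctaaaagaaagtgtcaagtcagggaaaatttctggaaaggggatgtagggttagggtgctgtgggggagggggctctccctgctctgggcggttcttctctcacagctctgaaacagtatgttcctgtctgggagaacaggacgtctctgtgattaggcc
Cd68 promoter, chr11:69666121-69666420, minus strand: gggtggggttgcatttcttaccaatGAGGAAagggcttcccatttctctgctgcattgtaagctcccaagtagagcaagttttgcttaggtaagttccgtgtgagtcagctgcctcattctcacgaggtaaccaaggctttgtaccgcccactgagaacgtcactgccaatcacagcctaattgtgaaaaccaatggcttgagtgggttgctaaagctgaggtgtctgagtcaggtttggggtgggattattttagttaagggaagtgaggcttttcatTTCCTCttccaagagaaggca
Ctss promoter, chr3:95526536-95526835, plus strand: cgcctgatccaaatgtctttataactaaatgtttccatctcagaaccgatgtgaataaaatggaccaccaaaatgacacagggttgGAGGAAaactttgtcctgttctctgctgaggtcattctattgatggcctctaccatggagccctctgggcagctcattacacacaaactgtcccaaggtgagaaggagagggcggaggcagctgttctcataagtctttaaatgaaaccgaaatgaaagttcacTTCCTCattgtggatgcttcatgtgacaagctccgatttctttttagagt
Lyz2 promoter, chr10:117282223-117282522, minus strand: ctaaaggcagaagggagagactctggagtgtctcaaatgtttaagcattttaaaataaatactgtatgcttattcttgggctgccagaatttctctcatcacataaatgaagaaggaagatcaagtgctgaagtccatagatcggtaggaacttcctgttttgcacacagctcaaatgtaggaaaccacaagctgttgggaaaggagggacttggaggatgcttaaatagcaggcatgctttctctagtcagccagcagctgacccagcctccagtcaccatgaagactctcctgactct

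Of the 6 promoters, 4 (all but Lyz2 and Fcer1g) held the letters GAGGAA on either strand, and 28.3% of all 32851 promoters of that length did. Counted from the start base as 0, the match began at base -30 in C1qb and at base -193 in C1qc. Cd68 had matches at bases -225 and 29, and Ctss at bases -164 and 0. The letters TGANTCA of AP-1, searched on both strands, were found in the Cd68 promoter alone among the 6 (7.81% of all promoters), and TTGCNNCAA of C/EBP in none of the 6 (2.08% of all promoters). These are matches of letters and no evidence that a factor was bound.

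On the mm10 assembly with GENCODE vM21, C1qa (ENSMUSG00000036887, chr4:136895917-136898803), C1qc (ENSMUSG00000036896, chr4:136889804-136893065) and C1qb (ENSMUSG00000036905, chr4:136880129-136886187) follow each other on the minus strand, with 5738 bases between the starts of C1qa and C1qc and 6878 between those of C1qc and C1qb. The other 7 lie on 7 further chromosomes. Cd68 (ENSMUSG00000018774) spans chr11:69664213-69666153 and Ctss (ENSMUSG00000038642) spans chr3:95526786-95556403. Tyrobp (ENSMUSG00000030579) spans chr7:30413760-30417585, Fcer1g (ENSMUSG00000058715) spans chr1:171229572-171234365 and Lyz2 (ENSMUSG00000069516) spans chr10:117277331-117282321. Adgre1 (ENSMUSG00000004730) spans chr17:57358691-57483527, and Csf1r (ENSMUSG00000024621) lies on the plus strand of chromosome 18 from 61100598 to 61132149.

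Each condition was 1 library, so no difference below has a replicate check or a p-value. Levels are FPKM, fragments scaled by the length of the gene's exons and by the mapped reads of the library, and differences are of log2(FPKM + 1), which understates the change of low genes. A gene was compared when 1 of the 2 libraries had it at an FPKM of 1 or more, and was counted as higher or lower when the difference was at least 1. The reads behind the FPKM values are not given in the sources used here. The SALL4 libraries listed 19361 to 21089 genes above 0 and the JGES libraries between 16524 and 18673. All 8 fibroblast genes of a fixed list (Col1a1, Col1a2 and others) reached an FPKM of 1 in each SALL4 library and 6 to 8 of them in each JGES library. On day 7 of JGES BMP4-, 5 of the 8 were lower than on day 0 (median -2.36). The origin of the cells was taken from the labels and was not tested. In bulk RNA, fewer cells of a type and less RNA per cell cannot be told apart.

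In the SALL4 cultures the C1q genes were low and lower after day 1 with SALL4-WT, and high and higher by day 11 with SALL4-delN12. C1qa was at an FPKM of 16.1, 3.03, 2.43 and 3.88 on days 1, 5, 9 and 11 with SALL4-WT. With SALL4-delN12 it was at 45.8, 56.9, 57.1 and 116 on the same days. C1qa was thus higher with SALL4-delN12 on each day, and the ratio of the pair grew from 2.84 on day 1 to 29.9 on day 11.

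C1qb and C1qc, the other chains of the same protein, had the same shape. C1qb was at 20.6, 4.59, 5.25 and 4.34 with SALL4-WT and at 51.6, 53.5, 47.6 and 107 with SALL4-delN12. C1qc was at 8.48, 2.44, 2.39 and 3.23 with SALL4-WT and at 27.3, 42.2, 44.8 and 82.3 with SALL4-delN12. Both genes were higher with SALL4-delN12 on each day. On day 11 C1qb was 24.7-fold and C1qc 25.5-fold higher with SALL4-delN12. The FPKM of C1qa over that of C1qb lay between 0.463 and 0.896 with SALL4-WT and between 0.887 and 1.20 with SALL4-delN12.

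**Figure D1:**
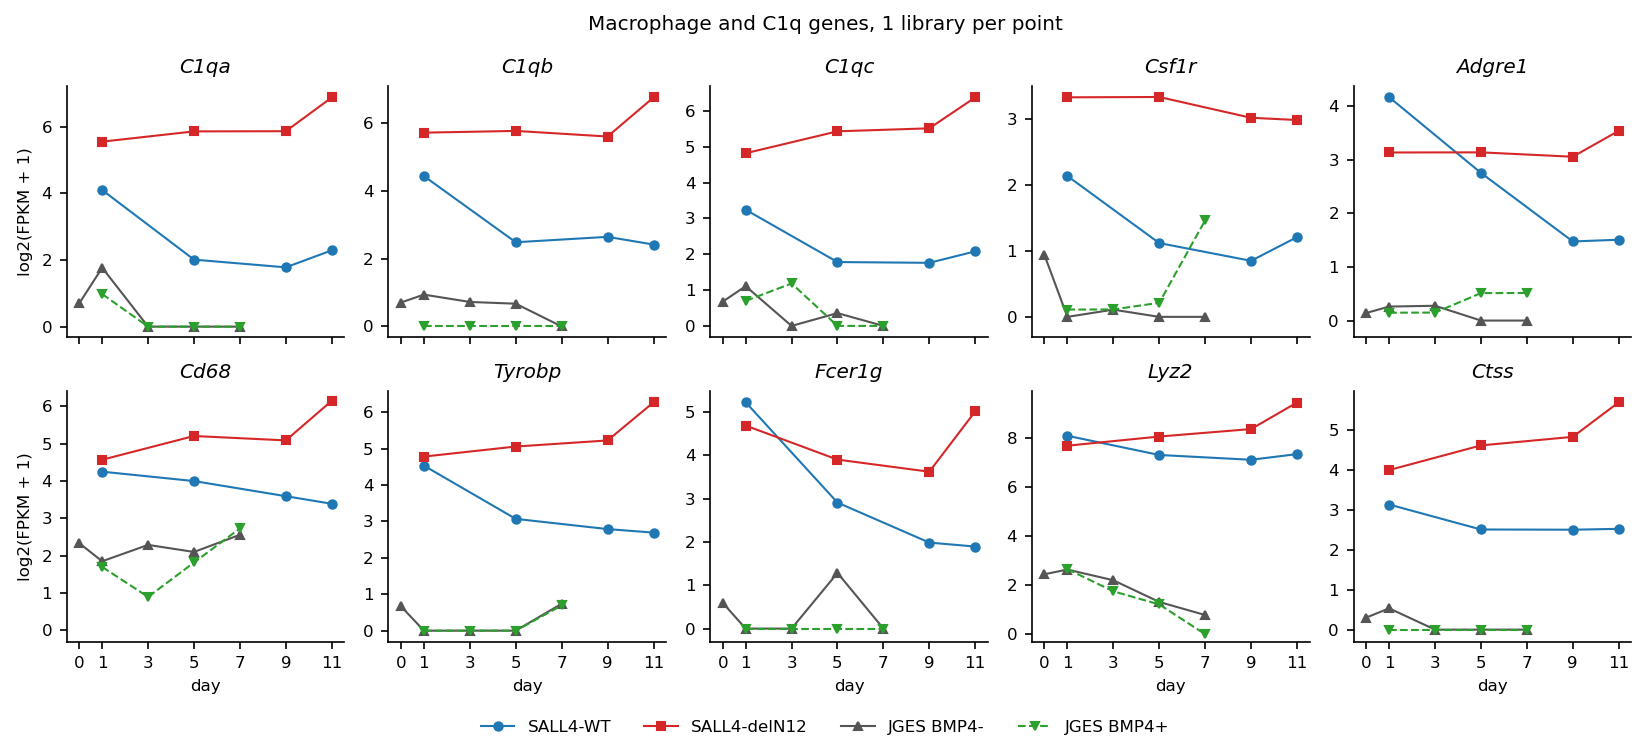
Level of each gene, log2(FPKM + 1) on the vertical axis with its own range in each panel, against day on the horizontal axis. Each point is 1 library of SALL4-WT, SALL4-delN12, JGES BMP4- or JGES BMP4+. Adgre1, Fcer1g and Lyz2 are higher with SALL4-WT on day 1 and lower from day 5 on, whereas the other genes are higher with SALL4-delN12 on each day.

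The 2 surface receptors differed from each other. Csf1r, which encodes the receptor for CSF1 and IL-34, was at 3.397, 1.17, 0.803 and 1.31 with SALL4-WT. It was at 9.06, 9.09, 7.11 and 6.92 with SALL4-delN12, higher on each day, and with SALL4-delN12 it was lowest on day 11. Adgre1, which encodes the macrophage antigen F4/80, started highest with SALL4-WT, at 16.9 on day 1, and went to 5.74, 1.78 and 1.84. With SALL4-delN12 Adgre1 stayed between 7.31 and 10.6, below the SALL4-WT library on day 1 and above it from day 5 on.

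The adaptors stayed within the threshold on day 1 and were far apart on day 11. Tyrobp was at 22.1, 7.40, 5.91 and 5.46 with SALL4-WT and at 26.5, 32.3, 36.4 and 76.2 with SALL4-delN12. Fcer1g was at 36.3, 6.50, 2.96 and 2.71 with SALL4-WT and at 24.7, 13.9, 11.3 and 31.3 with SALL4-delN12. Fcer1g was thus higher with SALL4-WT on day 1 and 11.5-fold higher with SALL4-delN12 on day 11, and its SALL4-delN12 libraries dipped on days 5 and 9 while those of Tyrobp did not.

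Lyz2, which encodes the lysozyme of macrophages and neutrophils, had the highest FPKM of the 10 genes in every SALL4 library. It was at 272, 158, 137 and 161 with SALL4-WT and at 205, 266, 329 and 698 with SALL4-delN12. Cd68, a membrane glycoprotein of late endosomes and lysosomes, was at 18.0, 14.9, 11.05 and 9.46 with SALL4-WT and at 22.7, 35.8, 32.9 and 69.7 with SALL4-delN12. Ctss, which encodes the lysosomal protease cathepsin S, was at 7.82, 4.71, 4.69 and 4.77 with SALL4-WT and at 15.1, 23.7, 27.6 and 51.2 with SALL4-delN12. Cd68 and Ctss were higher with SALL4-delN12 on each day, whereas the Lyz2 levels of SALL4-delN12 on days 1 and 5 were below that of SALL4-WT on day 1.

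On day 1, 4 of the 10 genes were higher with SALL4-delN12 (C1qa, C1qb, C1qc and Csf1r) where 4.18% of the 12794 genes compared were, and Adgre1 alone was lower where 5.63% were. The median difference over the 10 was 0.59 and over all genes compared -0.03. On day 5, 7 were higher (4.67% of all genes) and none of the 10 was lower (5.19%), with a median of 2.05; the 3 between the thresholds were Adgre1 (0.38), Fcer1g (0.99) and Lyz2 (0.75). On day 9 all 10 were higher (6.09%) and none was lower (5.75%), with a median of 2.25. On day 11 all 10 were again higher (6.55%) and none was lower (6.58%), and the median was 3.15, between 1.78 for Csf1r and 4.58 for C1qa. The pairs share no library between days, but nothing in the labels says that the days came from separate cultures.

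**Figure D2:**
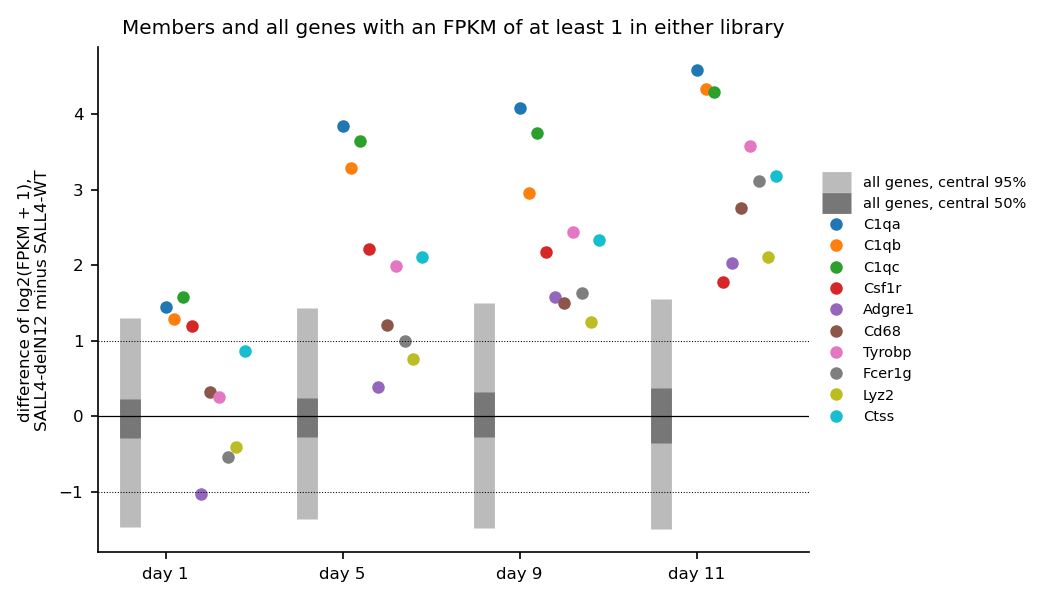
Difference of log2(FPKM + 1), SALL4-delN12 minus SALL4-WT, for the 10 genes on each day (points, 1 pair of libraries per day), beside the spread of all genes compared (dark bar, central 50% of genes; light bar, central 95%). On day 1 the points lie between -1.03 and 1.58, and on day 11 between 1.78 and 4.58, above the light bar.

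Within SALL4-WT, the difference of day 11 from day 1 was below 0 for all 10 genes, and 6 were lower by at least 1 (8.76% of 13673 genes) and none was higher (11.5%). Fcer1g was lowest at -3.33, then Adgre1 at -2.66 and C1qb at -2.02. Ctss, Lyz2, Cd68 and Csf1r were between -0.61 and -0.93 and stayed within the threshold, though Csf1r passed it at -1.31 with a pseudocount of 0.1. Within SALL4-delN12, 7 genes were higher on day 11 than on day 1 (10.4% of 13481 genes) and none was lower (4.61%). Lyz2 (1.76) and Ctss (1.70) were highest, while Adgre1 (0.40), Fcer1g (0.33) and Csf1r (-0.34) stayed within the threshold. For C1qa the SALL4-delN12 levels of days 5 and 9 lay close together, and most of the difference lay between days 9 and 11. In the same comparisons 6 of 8 fibroblast genes were higher on day 11 with SALL4-WT (median 2.06) and 3 of 8 with SALL4-delN12, and 1 of 5 primitive endoderm genes with SALL4-WT and 5 of 6 with SALL4-delN12 (median 3.84). Of the erythroid genes compared, 2 of 3 and 2 of 2 were higher, and no gene of these 3 lists was lower. Their part in the members' values was not tested.

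The 30 other macrophage and myeloid genes listed beside the 10 followed them in part. On day 1, 1 of the 23 compared was higher with SALL4-delN12 and 5 were lower, on day 5 6 of 22 were higher and none was lower, on day 9 10 of 24 were higher and 1 was lower, and on day 11 21 of 26 were higher and none was lower, with a median of 1.46. From day 1 to day 11 of SALL4-WT 14 of 22 were lower and 2 higher, and of SALL4-delN12 4 of 26 were lower and 4 higher, with a median of 0.38, against 7 higher and none lower of the 10. Ccl3 and Trem2, among those with the highest mean FPKM, had different patterns. Ccl3, a chemokine of activated macrophages, was at 163 in SALL4-WT and 41.4 in SALL4-delN12 on day 1, and at 4.08 and 10.6 on day 11. Trem2, a receptor that signals through TYROBP, was higher on day 11 than on day 1 in both, 11.1 and 31.5 with SALL4-WT and 15.6 and 56.3 with SALL4-delN12. Ptprc, which marks white blood cells, stayed below 1 in all 8 SALL4 libraries, between 0.0882 and 0.892. Spi1, named here because of the motif above, was at 5.96, 0.640, 0.848 and 0.958 with SALL4-WT and at 7.37, 3.93, 3.36 and 6.68 with SALL4-delN12.

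The ligands of the CSF1 receptor were on the opposite side. Csf1 was at 310, 74.2, 119 and 72.8 with SALL4-WT and at 153, 41.8, 37.8 and 26.5 with SALL4-delN12. Il34 was at 11.8, 4.51, 11.3 and 6.63 with SALL4-WT and at 3.05, 1.24, 2.82 and 0.972 with SALL4-delN12. Each ligand was lower with SALL4-delN12 on all 4 days, and both passed the threshold on days 1, 9 and 11. Of 9 genes for ITAM-coupled receptors and SYK, 4 of the 7 compared on day 11 were higher with SALL4-delN12 and none was lower. Of the 3 with the highest mean FPKM, Fcgr3 (3.27 against 16.3) and Clec4n passed the threshold and Trem2 did not. Fcgr1, Fcgr3 and Trem2 of the 9 also stand among the 30, so the counts of these lists overlap. Of 12 lysosomal proteases and membrane proteins 1 was higher on day 11 and none was lower, with a median of -0.11, so the lysosomal genes as a list did not move with Cd68, Lyz2 and Ctss. Ctsd, the protease cathepsin D, was at 2073 with SALL4-WT and 3470 with SALL4-delN12 on day 11. Of 19 other complement genes 5 of the 17 compared on day 11 were higher and 3 lower.

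Markers of other cell types moved between the same libraries, and their part in the values above was not tested. Of the 8 fibroblast genes 2 were higher and 1 lower with SALL4-delN12 on day 1, 1 was higher and 4 lower on day 5, and none was higher and 4 were lower on days 9 and 11, but Col1a1 was at 755 and 1065 on day 11. Of 6 primitive endoderm genes 5 were higher with SALL4-delN12 on day 11, and their summed FPKM lay between 16.2 and 24.2 in the SALL4-WT libraries and between 15.1 and 171 in the SALL4-delN12 libraries. Of 7 erythroid genes 2, Hba-a1 and Hba-a2, were higher with SALL4-delN12 on each day, and the list summed to 0.495 to 42.2 with SALL4-WT and to 6.53 to 334 with SALL4-delN12. Of 6 neutrophil genes S100a8 was at 25.6 to 77.7 with SALL4-WT and at 48.6 to 142 with SALL4-delN12, and of the 2 genes compared both were higher on day 5, neither passed the threshold on day 9, and 1 was lower on day 11. Of 6 endothelial genes 1 was higher and 1 lower on day 11, as were 1 and 1 of 6 mast cell and megakaryocyte genes and 1 and 1 of 6 pluripotency genes. No lymphocyte gene reached an FPKM of 1 in any of the 8 libraries.

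In the JGES cultures the same genes were near the floor. Of the 90 values (10 genes in 9 libraries) 41 were listed at 0 and 70 were below 1, while 39 of 40 values with SALL4-WT and 40 of 40 with SALL4-delN12 were at least 1. The median value was an FPKM of 0.105 with JGES, 5.36 with SALL4-WT and 34.4 with SALL4-delN12. The factors and the cultures cannot be told apart here, since no library links both sets: the JGES library of day 0 was already low, with the 10 genes summing to 12.7, against 422 and 436 in the SALL4-WT and SALL4-delN12 libraries of day 1.

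Cd68 alone was above 0 in all 9 JGES libraries, with a lowest FPKM of 0.859, a median of 3.28 and a highest of 5.63. Lyz2 had a lowest of 0, a median of 2.36 and a highest of 5.29, and its levels were lower late than early. It was at 4.45 on day 0, at 5.22, 3.60, 1.49 and 0.721 on days 1, 3, 5 and 7 BMP4-, and at 5.29, 2.36, 1.32 and 0 on the same days BMP4+. C1qa was above 0 in 3 JGES libraries, at 0.621 on day 0 and at 2.402 and 0.970 on day 1 BMP4- and BMP4+. C1qb reached at most 0.918 and C1qc at most 1.27, and all 3 C1q genes were listed at 0 on day 7 in both arms. Tyrobp reached at most 0.670, Fcer1g 1.44, Ctss 0.449 and Adgre1 0.428.

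Csf1r alone passed the threshold between the arms on day 7. It was listed at 0 in the BMP4- library and at 1.76 in the BMP4+ library, and it was at 0.159 on day 5 BMP4+ and at 0.918 on day 0. Its lowest values above 0 over the JGES libraries were 0.0788, 0.0797 and 0.0813, next to 0.159, so the low values of this gene lie in steps.

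With BMP4 on day 1 none of the 4 genes with an FPKM of at least 1 passed the threshold (9.48% of 13582 genes did in either direction). On day 3, 2 of 3 passed it (15.8%), C1qc higher and Cd68 lower by 1.39. On day 5, 1 of 3 passed it (22.0%), Fcer1g at 1.44 BMP4- and listed at 0 BMP4+. On day 7, 1 of 2 passed it (24.1%), Csf1r at 1.46 on the log2 scale, while Cd68 was at 4.89 and 5.63 in the 2 libraries. Set against day 0, Lyz2 alone of 2 genes was lower on day 7 BMP4- (10.4% of all genes were) and alone of 3 on day 7 BMP4+ (9.47%), and none of the 10 was higher (22.2% and 17.5%). Both day 7 libraries are set against the same day 0 library. The median over all genes compared was -0.18 and -0.14 with BMP4 on days 5 and 7, and 0.26 for day 7 BMP4- against day 0.

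The day 7 libraries of the other factor sets were normalized in a table of their own, which also holds the 2 JGES libraries of day 7 from the first table. These 2 listed 18733 and 19119 genes above 0, against 21258 to 23025 in the other 6 libraries, so the factor set and the set of libraries cannot be told apart in any comparison of JGES with another set. The C1q genes were highest with JGE, lower with JGEO, lower still with JGESO and listed at 0 with JGES. C1qa was at 17.5 and 10.2 in the JGE libraries BMP4- and BMP4+, at 6.78 and 7.84 with JGEO, and at 2.66 and 1.70 with JGESO. C1qb was at 20.2 and 13.0 with JGE, at 10.4 and 9.42 with JGEO, and at 3.81 and 2.95 with JGESO. C1qc was at 14.8 and 10.4, at 8.31 and 6.77, and at 3.43 and 4.19 in the same order. Each set is 2 libraries, so this order describes the values of these 3 genes, and the share of all genes in that order is not given.

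Ctss had the same order of sets as the C1q genes, at 7.44 and 4.16 with JGE, 1.29 and 2.00 with JGEO, and 0.419 and 0.471 with JGESO. Cd68 did not: it was at 15.9 and 7.63 with JGE, 6.08 and 3.87 with JGEO, 12.7 and 16.99 with JGESO, and 4.76 and 5.50 with JGES. Lyz2 was at 116 and 83.8 with JGE, 66.1 and 72.5 with JGEO, and 31.9 and 87.1 with JGESO, but at 0.703 BMP4- and listed at 0 BMP4+ with JGES. Lyz2 was thus below an FPKM of 1 with JGES only. Tyrobp was at 7.41 and 5.66 with JGE, 5.02 and 3.88 with JGEO, 2.49 and 5.27 with JGESO, and 0.653 and 0.603 with JGES. Csf1r was at 3.03 and 2.06 with JGE, 1.67 and 1.93 with JGEO, 1.05 and 1.55 with JGESO, and listed at 0 BMP4- and at 1.72 BMP4+ with JGES. Fcer1g was at most 5.17 and Adgre1 at most 2.38 in these 8 libraries. JGES of day 7 stands in both bulk tables, with a median ratio of 0.975 and 0.978 between them over genes at an FPKM of 1 or more.

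**Figure D3:**
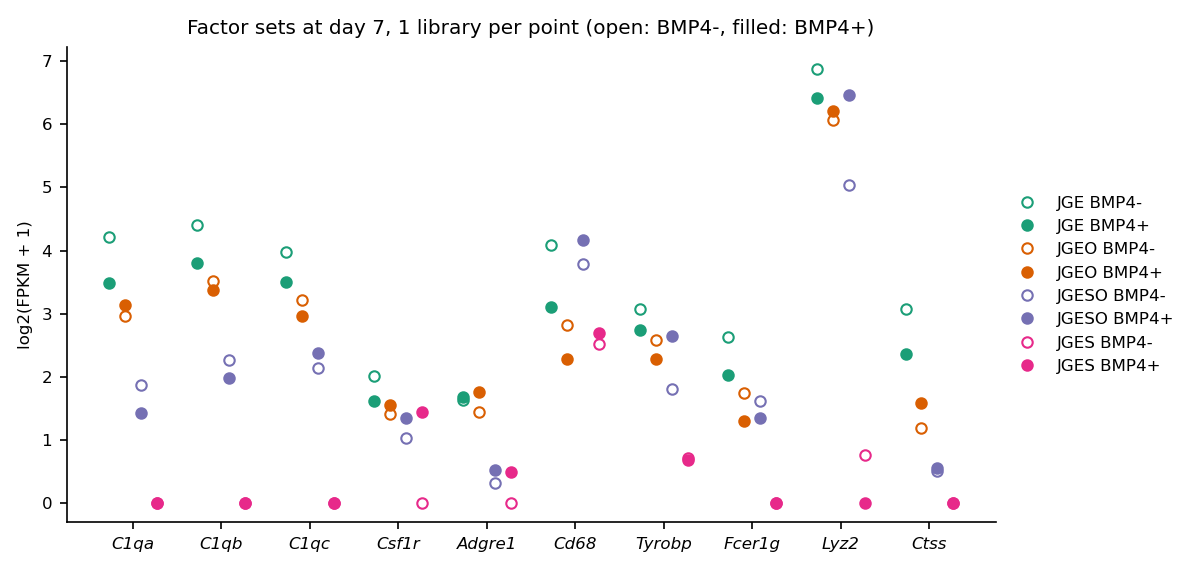
Level of each gene, log2(FPKM + 1), in the 8 libraries of day 7 with JGE, JGEO, JGESO or JGES. Open circles are BMP4- and filled circles BMP4+, 1 library each. The C1q genes step down from JGE to JGEO to JGESO and are at 0 with JGES, whereas Cd68 is highest with JGESO BMP4+.

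Between BMP4- libraries, JGES minus JGE was lower by at least 1 for all 10 genes (16.9% of 16066 genes were), with a median of -2.85 (-5.98 with a pseudocount of 0.1) and Lyz2 at -6.11. In the same pair 16 of the 19 other macrophage and myeloid genes compared, 7 of 8 fibroblast genes, 12 of 16 other complement genes and both CSF1 receptor ligands were lower, and 6 of 6 pluripotency genes were higher. Their part in the members' values was not tested. JGEO minus JGE was lower for 3 of 10 (11.9% of 15075 genes), C1qa, Cd68 and Ctss, with a median of -0.84 and all 10 differences below 0. In that pair 4 of 8 fibroblast genes (median -1.24), 7 of 12 lysosomal genes and 4 of 18 other macrophage and myeloid genes were lower too, and 6 of 6 pluripotency genes were higher. JGESO minus JGES was higher for all 8 genes compared (16.8% of 15560 genes), from 1.03 for Csf1r to 4.27 for Lyz2, and Adgre1 and Ctss were below an FPKM of 1 in both. There 4 of 7 fibroblast genes and 6 of 6 primitive endoderm genes were higher too, and 5 of the 13 other macrophage and myeloid genes. JGESO minus JGEO was lower for 5 of 10 (20.7% of 14567 genes), the 3 C1q genes, Adgre1 and Lyz2, but the median over all genes compared was itself -0.26, and with median-ratio scaling 2 genes passed. There 8 of 14 other complement genes and 3 of 13 other macrophage and myeloid genes were lower and 6 of 6 primitive endoderm genes higher. The part of these lists was not tested either. For JGESO minus JGES that median was -0.21, and for JGES minus JGE and JGEO minus JGE 0.06 and 0.05. JGE, JGES, JGESO and JGEO each enter 2 of these 4 comparisons, so the counts are not separate observations.

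For BMP4 on day 7 with these factor sets, the counts of the 10 genes were near those of all genes. With JGE none of the 10 passed the threshold (9.06% of 14714 genes did), and 9 of 10 differences were below 0, with a median of -0.53. With JGEO none of the 10 passed it (4.21% of 14749 genes), with 5 differences on each side of 0. With JGESO 1 of the 8 genes compared passed it (8.81% of 13521 genes), Lyz2 at 1.42. The fibroblast list, in comparison, had 3 of 8 lower by BMP4 with JGE, 1 of 8 lower with JGEO and 2 of 6 higher with JGESO. The endothelial list had 3 of 6, 4 of 6 and 3 of 4 higher with BMP4 in the same order, and none lower.

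Over the 17 libraries the 10 genes ran together. The correlation of each gene with the mean of the other 9, on the log2(FPKM + 1) scale, was between 0.915 (Csf1r) and 0.990 (Ctss). The SALL4 libraries were high and the JGES libraries low, and the part of this in the correlation was not tested. Within the 8 SALL4 libraries it was lowest for Adgre1 (0.725) and Fcer1g (0.799), the genes that were highest in the SALL4-WT library of day 1, and between 0.874 and 0.994 for the others. Among 15331 other genes, the 10 with the highest Pearson correlation with the mean of the members were Itgb2 (0.985), Cd53, Pld4, Clec4d, Lilr4b, Mpeg1, Lilrb4a, Hk3, Plek and Itgam (0.964). Itgb2 and Itgam encode the chains of complement receptor 3. With Spearman's rho, 1 of these 10, Lilr4b, remained among the 10 most alike. The others by rho were Gm15453 (0.939), Apip, Fbln5, Cd52, Col16a1, Reep5, Fbln2, Gmppb and Akr1a1 (0.924), so the genes named depend on the measure.

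The single-cell RNA-seq samples were JGES cultures of day 7, 11335 cells BMP4+ with a median of 21205 UMIs and 8685 cells BMP4- with a median of 12738 UMIs, 1 sample per condition. A UMI marks 1 captured RNA molecule, levels are CPM, the UMIs of a gene in every 1000000 UMIs of the cells, and the deposited cell labels were used as they are. The samples share 2 cell barcodes, neither of them among the cells described next. Bulk JGES RNA of the same day had the C1q genes at 0, but the cells held a few that carried most of them. In the BMP4+ sample 9 cells had UMIs of at least 5 of the 10 genes, which is 0.0794% of its cells (exact 95% binomial interval 0.0363 to 0.151). No cell of the BMP4- sample did (exact interval 0 to 0.0425). The intervals of the 2 samples, counting error only, overlap, which does not settle whether the shares differ, and no test compared them. With each cell thinned to 4000 UMIs, 6 cells in BMP4+ and 0 in BMP4- had at least 5 of the 10 genes. Without thinning the highest number in BMP4- was 4 of 10, reached by 5 cells, and in BMP4+ 4 cells had 4 and 4 cells had all 10.

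These 9 cells were picked by the 10 genes, so what they hold of them is a description. They held 97.4% of all C1qa UMIs of the BMP4+ sample, 93.8% of C1qc, 81.4% of C1qb, 97.9% of Ctss and 87.6% of Lyz2. They held 66.6% of Fcer1g, 31.9% of Tyrobp and 26.7% of Adgre1, but 7.56% of Cd68 and 3.91% of Csf1r. Most Cd68 and Csf1r RNA of the culture was thus outside the cells that carried C1q. Over all cells the 10 genes summed to 27.9 CPM in BMP4+ and to 8.36 in BMP4-, and without the 9 cells BMP4+ was at 14.5.

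**Figure D4:**
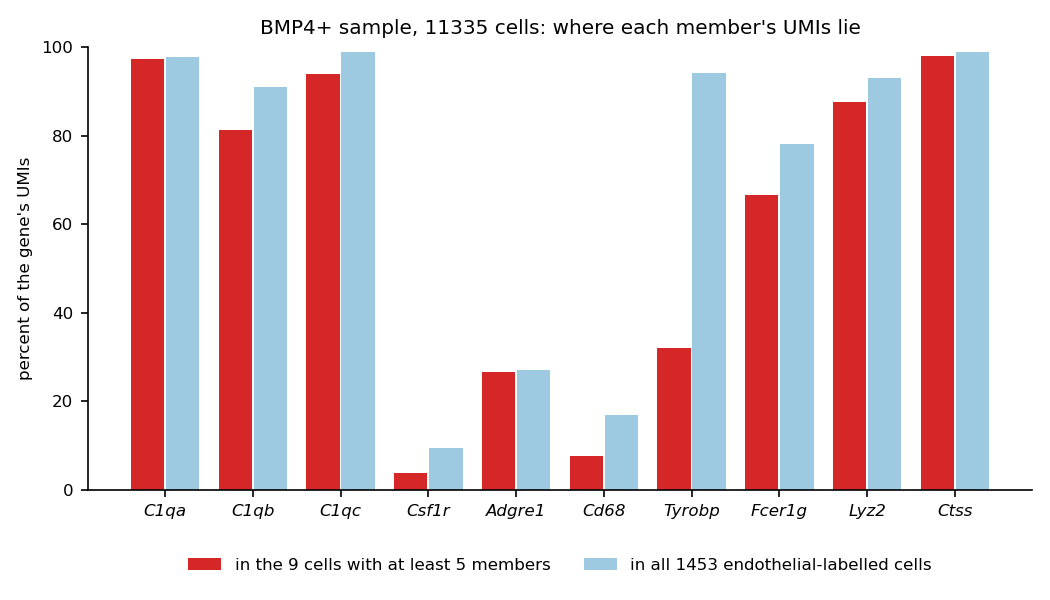
Percent of each gene's UMIs in the BMP4+ sample (11335 cells) that lie in the 9 cells with at least 5 of the 10 genes (red) and in all 1453 cells labelled endothelial, which include the 9 (blue). C1qa, C1qc and Ctss lie almost wholly in the 9 cells, whereas Csf1r, Adgre1 and Cd68 lie mostly outside the endothelial label.

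The 9 cells did not hold the genes evenly. Their UMIs of the 10 genes summed to 24 in the lowest cell, 420 in the median cell and 917 in the highest, of 15509 to 28593 UMIs in all. The 3 cells with the most Lyz2 had 714, 465 and 335 UMIs of it and 18, 6 and 42 of C1qa. The 2 cells with the most C1qa had 93 and 81 UMIs of it, 146 and 108 of C1qb, and only 8 and 0 of Lyz2. The cells with the most C1q RNA were thus not those with the most Lyz2 RNA, though 4 cells had UMIs of all 10 genes. Cells were not screened for doublets, and the UMI totals of the 9 cells lay around the median of their label, 21763.

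All 9 carried the deposited label of endothelial cells, which the other genes of 6 of them went against. The 6 endothelial genes (Pecam1, Kdr, Cdh5, Tie1, Tek and Emcn) summed to 15 UMIs in the 9 cells, 75.8 CPM, with Tek and Emcn at 0, against 595 CPM in the 1288 cells of that label in BMP4+ that had no Tyrobp UMI. The 30 other macrophage and myeloid genes, which did not choose the cells, summed to 1602 UMIs, 8094 CPM, against 176 CPM in those 1288 cells. Of the 30, 27 had a UMI, led, in an order read from these values, by Pf4 with 290, Laptm5 with 220 and Cd52 with 147, and Cx3cr1, Cd163 and Lyz1 had none. These sums came mostly from 6 of the 9 cells, each with 135 to 361 UMIs of the 30 genes and at most 1 of the endothelial list. The other 3 cells had 12, 37 and 44 UMIs of the 30 and 1, 6 and 5 of the endothelial list. Spi1 and Laptm5 were found in each of the 9 cells. Erythroid and lymphocyte genes had 0 UMIs there, the neutrophil list 1, the mast cell and megakaryocyte list 7, the fibroblast list 10, the pluripotency list 1 and the primitive endoderm list 20. Lysosomal proteases and membrane proteins stood at 22488 CPM, against 2816 in the 1288 cells, led by Ctsd, Ctsl and Ctsb. Other BMP4+ labels stood higher than the 1288 cells, the intermediate state at 7158 CPM, ParE at 6476 and placenta-like at 3721. Single cells among the 9 held 1132, 993 and 947 of their 4451 lysosomal UMIs. All 7 ITAM receptor and kinase genes of the UMI table had a UMI in the 9 cells.

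Several members reached beyond these cells inside the endothelial label, Tyrobp in the most cells. In BMP4-, which had no such cell, Lyz2 stood at 10.8 CPM in that label and at 0.144 in the intermediate state, and 82.7% of its UMIs lay in the label, in 7 cells. Fcer1g stood there at 5.23 CPM and at 0.337 in the intermediate state, and Csf1r at 1.90 and 0.0842. Tyrobp stood at 29.7 CPM in the BMP4+ cells of that label (exact Poisson interval 27.9 to 31.6) and at 48.1 in the BMP4- cells (43.5 to 53.0). Without the 9 cells, left out after seeing the data, the BMP4+ value was 19.7 CPM (18.3 to 21.3). A Tyrobp UMI was found in 11.4% of all cells of that label BMP4+ and in 13.4% BMP4-, at median depths of 21763 and 15083 UMIs. In other labels set beside it the share was 0.759% of the BMP4+ cells labelled ParE, at a median of 23772 UMIs, and 1.10% of the BMP4- cells labelled pluripotent, at a median of 15444. Whether the cells of these labels lack the gene was not tested. After each cell was thinned to 4000 UMIs the shares were 5.09%, 8.68%, 0.169% and 0.164% in the same order. Of the cells with at least 5 Tyrobp UMIs that were not among the 9, a cut set after seeing the values, 37 were BMP4+ and 22 BMP4-, and each was labelled endothelial. Only 5 of the 37 and 2 of the 22 had a C1q UMI. The 30 other macrophage and myeloid genes stood at 1070 CPM in the 37 cells and at 1456 in the 22, and the endothelial list at 554 and 227.

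**Figure D5:**
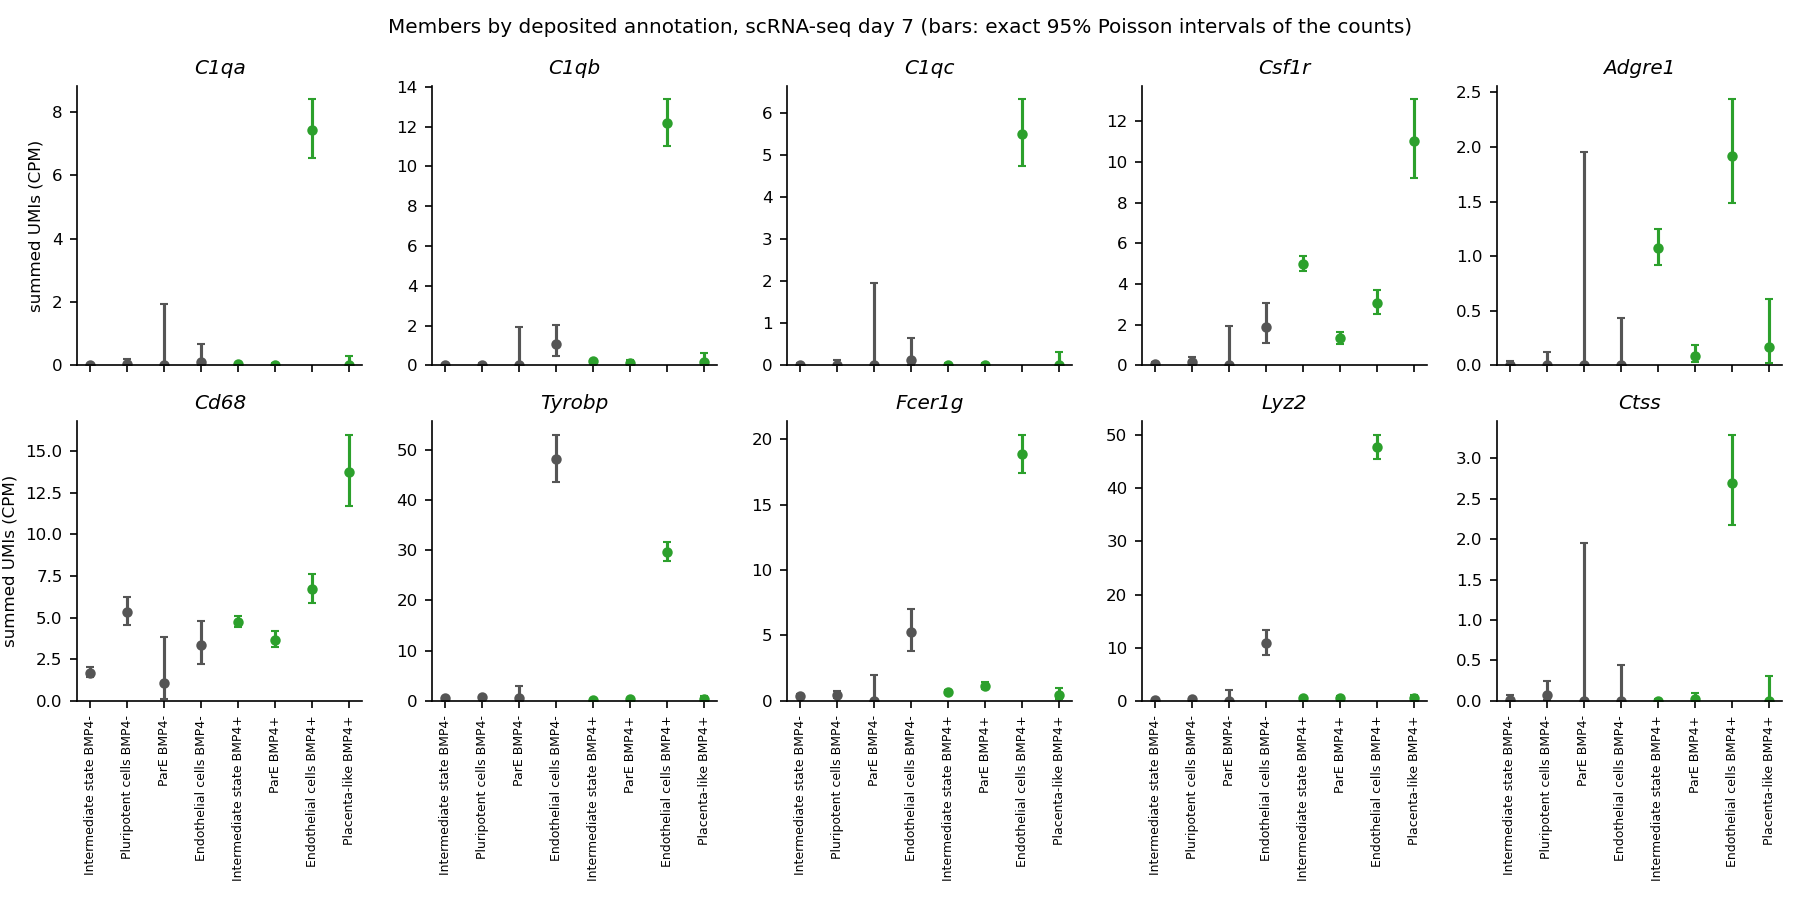
Level of each gene in CPM, summed over the cells of each deposited label, in BMP4- (grey) and BMP4+ (green), 1 sample each. Bars are exact 95% Poisson intervals of the counts and cover counting error only. The C1q genes and Ctss stand up in BMP4+ cells labelled endothelial, Tyrobp, Fcer1g and Lyz2 in that label of both samples, and Csf1r and Cd68 in BMP4+ cells labelled placenta-like.

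Csf1r and Cd68 were highest in another label. Csf1r, which trophoblast also expresses, stood at 11.03 CPM in the BMP4+ cells labelled placenta-like (9.22 to 13.1), at 4.999 in the intermediate state, 3.06 in the endothelial label and 1.33 in ParE. Over all BMP4- cells it stood at 0.227. Without the 9 cells, a setting added after seeing the data, the endothelial label stood at 1.81 CPM (1.39 to 2.32), which overlaps the interval of ParE (1.06 to 1.66), so these 2 labels were not told apart. A Csf1r UMI was found in 17.1% of placenta-like cells and in 2.82% of ParE cells, at median depths of 28906 and 23772 UMIs, and in 4.42% and 0.632% after thinning to 4000 UMIs. Of the 546 BMP4+ cells with Csf1r that were not among the 9, 72.5% had no other of the 10 genes and 5 had a C1q UMI.

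Cd68 stood at 13.7 CPM in placenta-like cells, at 5.15 over all BMP4+ cells and at 2.67 over all BMP4- cells, where the label of pluripotent cells was highest at 5.32. Adgre1 had 247 UMIs in BMP4+, 173 of them in 95 cells of the intermediate state, and 0 in BMP4- (exact interval 0 to 0.03 CPM). Of the 102 cells with Adgre1 outside the 9, none had a C1q UMI. C1qa had 7 UMIs outside the 9 cells in BMP4+ and 2 in BMP4-, and Ctss 2 and 3, so these levels were close to those of single molecules.

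Chromatin was profiled in the SALL4 cultures only, as 9 lists of open sites by ATAC-seq (MEFs before infection, and both SALL4 forms on days 1, 5, 9 and 11) and 4 lists of CUT&Tag sites on day 6, for SALL4 and for H3K27ac, an acetylation of active promoters and enhancers. Each list was called by the authors on 1 sample or on merged replicates, so presence and score are given without a test. Counted were peaks within 2 kb of the start site. C1qa, C1qb, Lyz2 and Ctss had none in any of the 13 lists.

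Among open sites, 3 of the 10 genes had such a peak in MEFs (C1qc, Csf1r and Cd68), where 67.9% of 20438 protein-coding genes did. With SALL4-WT they were 3 on day 1 (C1qc, Cd68 and Tyrobp; 61.7% of coding genes), 3 on day 5 (C1qc, Adgre1 and Cd68; 66.1%), 2 on day 9 (C1qc and Cd68; 65.3%) and 4 on day 11 (C1qc, Adgre1, Cd68 and Fcer1g; 65.6%). With SALL4-delN12 they were 2 on day 1 (C1qc and Cd68; 59.4%), 4 on day 5 (C1qc, Adgre1, Cd68 and Tyrobp; 61.3%), 2 on day 9 (Csf1r and Cd68; 63.0%) and 2 on day 11 (C1qc and Cd68; 63.5%). In each of the 9 lists the share of the 10 was below that of coding genes. Cd68 alone had such a peak of H3K27ac, with SALL4-WT (48.8% of coding genes) and with SALL4-delN12 (58.2%). Cd68 alone also had one of SALL4, with SALL4-WT (52.7%) and with SALL4-delN12 (39.5%). The start of Mpdu1 lies 3511 bases from that of Cd68.

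A pair of sites near the members differed in other ways, and their sequences in 300 bases around the centre of the MEF peak are given for that reason, read on the strand of the gene, with TTCCTC in capitals.
C1qc upstream site, chr4:136893980-136894279, minus strand: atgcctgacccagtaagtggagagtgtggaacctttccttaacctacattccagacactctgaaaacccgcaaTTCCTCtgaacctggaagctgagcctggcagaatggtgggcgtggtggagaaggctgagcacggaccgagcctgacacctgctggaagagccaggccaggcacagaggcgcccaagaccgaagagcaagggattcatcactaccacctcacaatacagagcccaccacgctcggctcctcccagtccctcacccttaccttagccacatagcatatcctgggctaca
Ctss upstream site, chr3:95523736-95524035, plus strand: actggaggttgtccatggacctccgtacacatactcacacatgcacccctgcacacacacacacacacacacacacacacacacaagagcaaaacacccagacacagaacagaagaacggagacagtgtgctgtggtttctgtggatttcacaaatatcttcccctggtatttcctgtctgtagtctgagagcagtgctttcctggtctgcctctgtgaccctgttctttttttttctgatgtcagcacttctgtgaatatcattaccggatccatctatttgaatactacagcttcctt

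The first lies between C1qc and C1qa, about 1.06 kb before the start of C1qc, and was open in MEFs and in 7 of the 8 lists of infected cells. Its score, which MACS derives from the p-value of the peak, was 242 in MEFs. It was 144, 131, 130 and 167 on days 1, 5, 9 and 11 with SALL4-WT, and 54.5, 115 and 88.5 on days 1, 5 and 11 with SALL4-delN12, with no peak on day 9. The site thus had its lower scores in the cultures with more C1q RNA, though scores of different lists also move with their depth. It held 1 match to GAGGAA on its minus-strand reading as TTCCTC, as 28.4% of 125454 MEF windows of that length did, and none to TGANTCA (30.7%) or TTGCNNCAA (2.38%).

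The second lies 2.90 kb before the start of Ctss, outside the 2 kb window. It was a peak in MEFs with a score of 246 and in all 4 SALL4-delN12 lists of open sites, with 142, 60.3, 60.0 and 225 on days 1, 5, 9 and 11, and in none of the 4 SALL4-WT lists. On day 6 it also lay in a peak of H3K27ac with a score of 157 and in a peak of SALL4 with a score of 154, both in the SALL4-delN12 lists and neither in the SALL4-WT lists. The H3K27ac list was longer with SALL4-delN12 (45599 peaks) than with SALL4-WT (19841), while the SALL4 lists were close in length (67310 and 69475). Ctss RNA was higher with SALL4-delN12 in each of the 4 pairs, from 1.93-fold on day 1 to 10.7-fold on day 11. The window held none of the 3 motifs. This site was singled out after the peaks had been seen.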

How the data were processed

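RNA-seq of bulk and single cells and peaks of ATAC-seq and CUT&Tag from mouse cultures were used as deposited. Versions are from the submitters' processing notes. Bulk values were FPKM, made by the authors with Trim Galore 0.6.4, HISAT2 2.2.1 and StringTie 2.2.1 on mm10 and deposited as one table of 17 libraries and another of 8, normalized separately. FPKM keep no read counts, so the depth is not known and no count test was run. With 1 library per condition, differences of log2(FPKM + 1) were taken within a table, without a test, over genes that 1 of the 2 libraries had at an FPKM of 1 or more. Single-cell values were UMI counts per gene and cell, deposited by the authors with cell labels, and made with STAR and Scanpy. Of its columns 10749 (MEF and ESC cells) were not used and 20020 were. UMIs were summed per sample and label and given as CPM (of 1000000 UMIs), with exact Poisson intervals for sums and exact Clopper-Pearson intervals for shares at the 95% level. A count of 0 was given the upper end of its exact interval. Intervals and limits cover counting error only, and no doublet caller was run. Cells were thinned to 4000 UMIs where shares are compared. ATAC-seq and CUT&Tag peaks were called by the authors with Bowtie2 2.4.5, SAMtools 1.16.1 and MACS 1.4.2, and the deposited peak score is the one MACS derives from the p-value. CUT&Tag replicates were merged before peak calling, per the study's methods. A peak was given to a gene when it reached within 2 kb of the start site (GENCODE vM21, 20438 coding genes).

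The 10 genes and the marker lists (30 other macrophage and myeloid genes, 8 fibroblast, 6 endothelial, 7 erythroid, 6 neutrophil, 6 mast cell and megakaryocyte, 5 lymphocyte, 6 primitive endoderm and 6 pluripotency genes, 2 CSF1 receptor ligands, 19 other complement genes, 9 ITAM receptors and SYK, and 12 lysosomal proteases and membrane proteins) were chosen with earlier results of these data known. Named examples of a list were taken from the 3 with the highest mean FPKM over the libraries compared, of which 1 is not reported here and not each is named. Ptprc, Spi1, the leading genes of the 9 cells, the Ctss upstream site and the genes of the closing observations were named outside that rule, after their values were seen. The most like genes were those with the highest Pearson correlation among genes that reached an FPKM of 1 in 3 or more libraries. Alternatives were a pseudocount of 0.1, an FPKM of at least 5, median-ratio scaling, other limits on cells, peak distance and score, and Spearman's rho. The comparisons of day 11 with day 1 and of factor sets were added after seeing the data. Python 3.11.15, pandas 2.3.3, numpy 2.4.6, scipy 1.17.1 and matplotlib 3.10.9 were used, and the scripts were tested on simulated data. Sequences are from RefSeq (GRCm38.p6), and the promoter sequences were checked against that genome.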

Additional observations from a re-analysis of the deposited data

Results flagged for a closer look

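For 4 genes there were opposite differences between day 11 and day 1 in the SALL4 forms, lower by at least 1 on the log2 scale with SALL4-WT and higher by at least 1 with SALL4-delN12. The SALL4-delN12 value minus the SALL4-WT value was 3.13 for C1qa, 3.06 for C1qb, 2.72 for C1qc and 3.33 for Tyrobp. Each rests on 4 libraries, 1 per form and day, so the difference between the forms was not tested.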

How the results depend on the processing

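Each condition had 1 library, so no analysis paired by replicate was possible, and no replicate could be left out. A fit that pairs the SALL4 forms, or the JGES arms, by day would take the days as replicates and was not run. The counts of the 10 genes higher with SALL4-delN12 on each day, lower on day 11 than on day 1 with SALL4-WT and higher with SALL4-delN12 stayed within 1.5 times their value under each alternative run. Over the alternatives of the counts, summed levels and peak pairs, 75 values stayed the same and 19 moved, and over those of single genes and medians 152 and 6. No value past the threshold changed sign. With a pseudocount of 0.1, the members past the threshold with BMP4 were 1 in place of 0 for JGES on day 1, 1 in place of 0 for JGE and 2 in place of 1 for JGESO. With an FPKM of at least 5 required, they were 0 for JGES with BMP4 on days 3, 5 and 7, 0 for JGES day 7 against day 0 in both arms, and 2 in place of 8 for JGESO minus JGES, since fewer genes were compared. With median-ratio scaling JGESO minus JGEO had 2 members lower in place of 5. Cells with at least 3 of the 10 genes were 36 in BMP4+ and 10 in BMP4-, in place of 9 and 0 with at least 5. The summed level of the 10 genes in BMP4+ cells was 14.5 CPM without the 9 cells, in place of 27.9. Pairs of gene and list with an open site were 25 of 90 within 2 kb, 50 within 5 kb and 15 with a score of at least 100, and SALL4-delN12 had fewer of the 10 than SALL4-WT within 2 kb on days 1 and 11 but more within 5 kb. The pairs were 0 in place of 2 for H3K27ac with a score of at least 100, and for SALL4 5 within 5 kb and 1 with a score of at least 100, in place of 2. With Spearman's rho 1 of the 10 most like genes remained. Among single values, Fcer1g on day 5 was 1.09 with a pseudocount of 0.1 and 1.01 with median-ratio scaling, past the threshold it just missed at 0.99. Csf1r on day 11 against day 1 of SALL4-WT was -1.31 with a pseudocount of 0.1, past the threshold it missed at -0.93. With that pseudocount the medians of the 10 genes were -2.54 and -2.17 for JGES day 7 BMP4- and BMP4+ against day 0, in place of -0.64 and -0.45, -5.98 for JGES minus JGE, in place of -2.85, 3.98 for JGESO minus JGES, in place of 1.44, and -1.15 for JGESO minus JGEO, in place of -0.91.

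Low values are the least certain, since the reads behind them are not known. The lowest FPKM above 0 in the JGES libraries was 0.0788 for Csf1r and 0.102 for Adgre1, but 0.510 to 0.721 for C1qa, C1qb, Tyrobp, Fcer1g and Lyz2, and differences between such values and 0 were not tested. Rates of cells with a UMI differ with depth between the single-cell samples.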

Other observations

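Of the 17 complement genes other than C1q compared on day 11, 5 were higher with SALL4-delN12, 3 were lower and 9 passed neither threshold, and the 3 with the highest mean FPKM had different patterns. Serping1, which encodes the inhibitor of the C1 proteases, was at 71.3, 203, 288 and 377 on days 1, 5, 9 and 11 with SALL4-WT and at 8.25, 22.1, 37.1 and 71.0 with SALL4-delN12, lower in each pair of libraries, whereas the C1q genes were higher in each. C3, the central component, was at 138, 132, 107 and 151 with SALL4-WT and at 50.7, 145, 94.4 and 78.8 with SALL4-delN12. Clu, an inhibitor of the terminal pathway, was at 52.1, 30.9, 57.6 and 126 with SALL4-WT and at 33.3, 77.7, 235 and 244 with SALL4-delN12. From day 1 to day 11, 10 of the 17 complement genes compared were higher with SALL4-WT and 2 lower, and 9 of 16 were higher with SALL4-delN12 and none was lower. Each value is 1 library.

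In the 9 cells, 175 UMIs fell on 12 of the 19 other complement genes, led by Clu with 63, C3ar1 with 40 and Cfp with 32, while C1ra had 1 and C1s1 had none. A single cell held 57 of the 175 UMIs, and it had 37 UMIs of the 30 other macrophage and myeloid genes. C3ar1 encodes a receptor for a fragment of C3, and Cfp encodes properdin. Csf1 had 15 UMIs in the 9 cells, 13 of them in a single cell, and Il34 had none.

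The cells with at least 5 Tyrobp UMIs that were not among the 9 carried Spi1 in 36 of 37 cells of BMP4+. Their neutrophil list stood at 46.95 CPM in BMP4+ and 247 in BMP4-, against 10.6 and 0.972 in the endothelial-labelled cells without a Tyrobp UMI. Single cells held much of it, 52 and 49 of the 113 UMIs in BMP4- and 8, 9 and 9 of the 43 in BMP4+. The erythroid list of the cells with at least 5 Tyrobp UMIs stood at 34.9 and 434 CPM. It was at 42.7 and 422 in the endothelial-labelled cells without a Tyrobp UMI. Lymphocyte genes had 0 UMIs in the cells with at least 5 Tyrobp UMIs of both samples.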
